A study of Mus musculus with 6 samples.

Results

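The G1 cyclins and their kinases were described here as 8 genes: the D cyclins Ccnd1, Ccnd2 and Ccnd3, their partners Cdk4 and Cdk6, the E cyclins Ccne1 and Ccne2, and their partner Cdk2. They were chosen by gene symbol, as all probes that the platform annotation pairs with one of these names, which gave 19 of the 45281 probes, and 8 of the 19057 genes with a symbol. RNA came from fluorescence-sorted Sertoli cells, the somatic cells that nurse germ cells in the seminiferous tubules, of mice aged 6 weeks on a mixed C57B6J/129SvEv background. Each of the 6 samples was hybridised to 1 Illumina bead array. The 3 Rb cKO samples had the genotype Rb1 flox/-; Amh-Cre +, and the 3 Control samples had Rb1 flox/- without Cre. Both groups therefore carry a null Rb1 allele beside the floxed one, so the controls hold no wild-type Rb1 allele, and both carry the Sox9-GFP label used for sorting. Cre was driven by the promoter of Amh, a hormone gene that Sertoli cells switch on in the fetal testis, and only the Rb cKO group carried it, so effects of Cre itself and of losing Rb1 cannot be told apart. The labels do not state that replicates are different animals; a p-value here weighs only the scatter among these arrays, and that scatter may be technical.

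Cells leave the first gap phase of the cycle when D cyclins, made in response to growth signals, bind Cdk4 or Cdk6 and begin to phosphorylate the Rb protein. Phosphorylated Rb releases E2F transcription factors, which raise E cyclins among other genes, and cyclin E with Cdk2 phosphorylates Rb further and helps start DNA replication. Male mice that lack cyclin D2 have small testes, and adult Sertoli cells normally do not divide. The comparison asks how the transcripts of this machinery stood in Sertoli cells of Rb cKO and Control mice.

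Rb1 was measured first. Its probe ILMN_2679619 had normalised log2 intensities of 8.24, 7.73 and 7.44 in Rb cKO and 9.10, 9.34 and 8.64 in Control. Its probe ILMN_2861644 read 10.37, 9.92 and 9.36 in Rb cKO and 10.53, 11.08 and 10.98 in Control. The Rb cKO arrays lay below the controls for both probes, by 1.22 ± 0.32 (SE) and 0.98 ± 0.34 log2 units, with limma adjusted p of 0.399 and 0.668. The position of either probe relative to the floxed exons is not known here, so neither is a check of the deletion. The arrays of Rb cKO replicate 1 and Control replicate 3 stood apart, since the leading principal component (58.9% of variance) placed them at -113.9 and 110.2 and the other arrays between -34.3 and 31.4. Of 11 tested Sertoli markers, all 11 had a negative difference and none passed the threshold. Sox9 read 11.48 to 12.20 over the 6 arrays, with a difference of -0.39 ± 0.26 (SE) and groups that did not overlap. Its other probe differed by -1.22. The tight junction gene Cldn11 read 14.40 to 14.61. Trf, Amh and Inha read 4.57, 4.38 and 5.42 on Rb cKO replicate 1, where the controls read 9.19 to 11.10, 5.46 to 6.93 and 11.20 to 12.85.

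Promoter sequence was in the RefSeq table of build GRCm38.p6 for 5 of the 8 genes, Ccnd3 (with 2 start sites), Cdk4, Cdk6, Ccne1 and Cdk2. Sequences for Ccnd1, Ccnd2 and Ccne2 are not given. The 250 bases upstream of each start were searched on both strands for the E2F words TTTCCCGC, TTTGGCGC, TTTGCCGC and TTTCGCGC and for the E-box word CACGTG, the site of Myc and its relatives. Capitals mark these words, and no E2F word overlapped an E-box. Ccne1 is shown because the cyclin E1 gene is known as an E2F target and its probe was higher on every Rb cKO array.
Ccne1, chr7:38107491-38107740, minus strand: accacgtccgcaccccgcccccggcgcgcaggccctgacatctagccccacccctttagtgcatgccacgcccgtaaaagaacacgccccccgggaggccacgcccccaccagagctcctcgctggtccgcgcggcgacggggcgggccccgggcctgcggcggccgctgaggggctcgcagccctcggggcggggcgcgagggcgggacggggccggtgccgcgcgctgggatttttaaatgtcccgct
Cdk2, chr10:128705052-128705301, minus strand: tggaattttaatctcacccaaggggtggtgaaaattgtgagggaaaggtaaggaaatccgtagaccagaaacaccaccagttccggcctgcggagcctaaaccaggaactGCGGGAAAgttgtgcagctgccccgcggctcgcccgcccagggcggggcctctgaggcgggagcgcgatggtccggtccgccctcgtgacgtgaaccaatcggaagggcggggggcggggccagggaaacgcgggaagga
Cdk4, chr10:127063285-127063534, plus strand: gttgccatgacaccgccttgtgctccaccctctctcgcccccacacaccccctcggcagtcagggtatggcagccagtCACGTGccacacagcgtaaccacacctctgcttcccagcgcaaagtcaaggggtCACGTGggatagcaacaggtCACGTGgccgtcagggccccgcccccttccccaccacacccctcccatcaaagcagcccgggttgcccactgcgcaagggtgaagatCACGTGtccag
The window of Cdk2 held 1 E2F word, TTTCCCGC read on the opposite strand, from 140 to 133 bases before the start. The window of Cdk4 held 4 E-box words, which begin 172, 118, 98 and 11 bases before the start. The Ccne1 window held no word of either kind and was 76% G or C, against a median of 52.4% over all windows. Of all 32851 windows of this length in the table, 1.86% held an E2F word and 6.02% held an E-box word. In the Cdk6 window there was 1 E-box word and no E2F word. A match is a description of letters, not of a bound site, and a window without one says only that these letters are not in it.

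The 2 start sites of Ccnd3 are shown because its probes are annotated to different transcripts and behaved differently on the arrays. Which start gives which transcript is not in the table used here.
Ccnd3 first start, chr17:47504801-47505050, plus strand: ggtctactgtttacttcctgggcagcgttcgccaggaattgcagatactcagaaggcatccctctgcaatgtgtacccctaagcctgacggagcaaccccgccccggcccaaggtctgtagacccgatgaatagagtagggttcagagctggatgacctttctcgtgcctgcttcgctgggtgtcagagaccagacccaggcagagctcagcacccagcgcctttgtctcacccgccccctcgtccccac
Ccnd3 second start, chr17:47593217-47593466, plus strand: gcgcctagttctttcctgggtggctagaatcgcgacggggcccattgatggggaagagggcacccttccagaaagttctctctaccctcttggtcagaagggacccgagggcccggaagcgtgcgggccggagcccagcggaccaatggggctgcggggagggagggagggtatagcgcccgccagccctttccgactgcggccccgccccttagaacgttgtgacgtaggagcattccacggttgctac
Neither Ccnd3 window held an E2F or E-box word. The second held 1 CCAAT word, also searched on both strands and found in 33.8% of all windows, and the first did not.

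A probe was tested where it was detected on at least 3 of the 6 arrays, whatever their group, and 12 of the 19 member probes, from 6 genes, met this. Cdk6 and Ccne2 had no tested probe. None of the 12 passed an adjusted p of 0.05 in limma, where 0.142% of the 21805 probes tested passed as higher in Rb cKO and none as lower. At an unadjusted p under 0.05 there were 3 member probes, 2 of Ccnd1 and 1 of Ccne1, all higher in Rb cKO, against 4.63% of all tested probes higher, 1.76% lower and 6.39% in either direction. With the replicate number as a block there were 5, the same 3 and 2 that were lower. These were Cdk4 ILMN_2690976 (limma p 0.0463, adjusted 0.327) and Cdk2 ILMN_2770759 (p 0.0357, adjusted 0.306). Each Rb cKO array read below the same-numbered control on both probes. How many of all tested probes did so was not counted, and a shared number is not known to be a pair. Without Rb cKO replicate 1 only 1 member probe was left, Ccne1, where 651 of all tested probes were higher and 171 lower. Without Control replicate 3 only 1 was left, Ccnd1 ILMN_1221503, where 609 of all tested probes were higher and 264 lower. The arrays of the groups did not overlap for 4 of the 12: 2 of Ccnd1, 1 of Ccne1, and 1 of Cdk2 that was lower. Of all tested probes, 8.04% lay apart as higher, 4.01% as lower and 12.1% in either direction. Probes of a gene share their target and are not independent. The members' differences ran from -1.85 to 1.03, with 6 positive, 6 negative and a median of -0.10, beside a median of 0.08 and 57.0% positive over all tested probes. With the replicate number as a block, no probe on the array passed limma (lowest adjusted p 0.0529); before adjustment 1975 probes were higher and 1282 lower at p under 0.05.

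**Figure D1:**
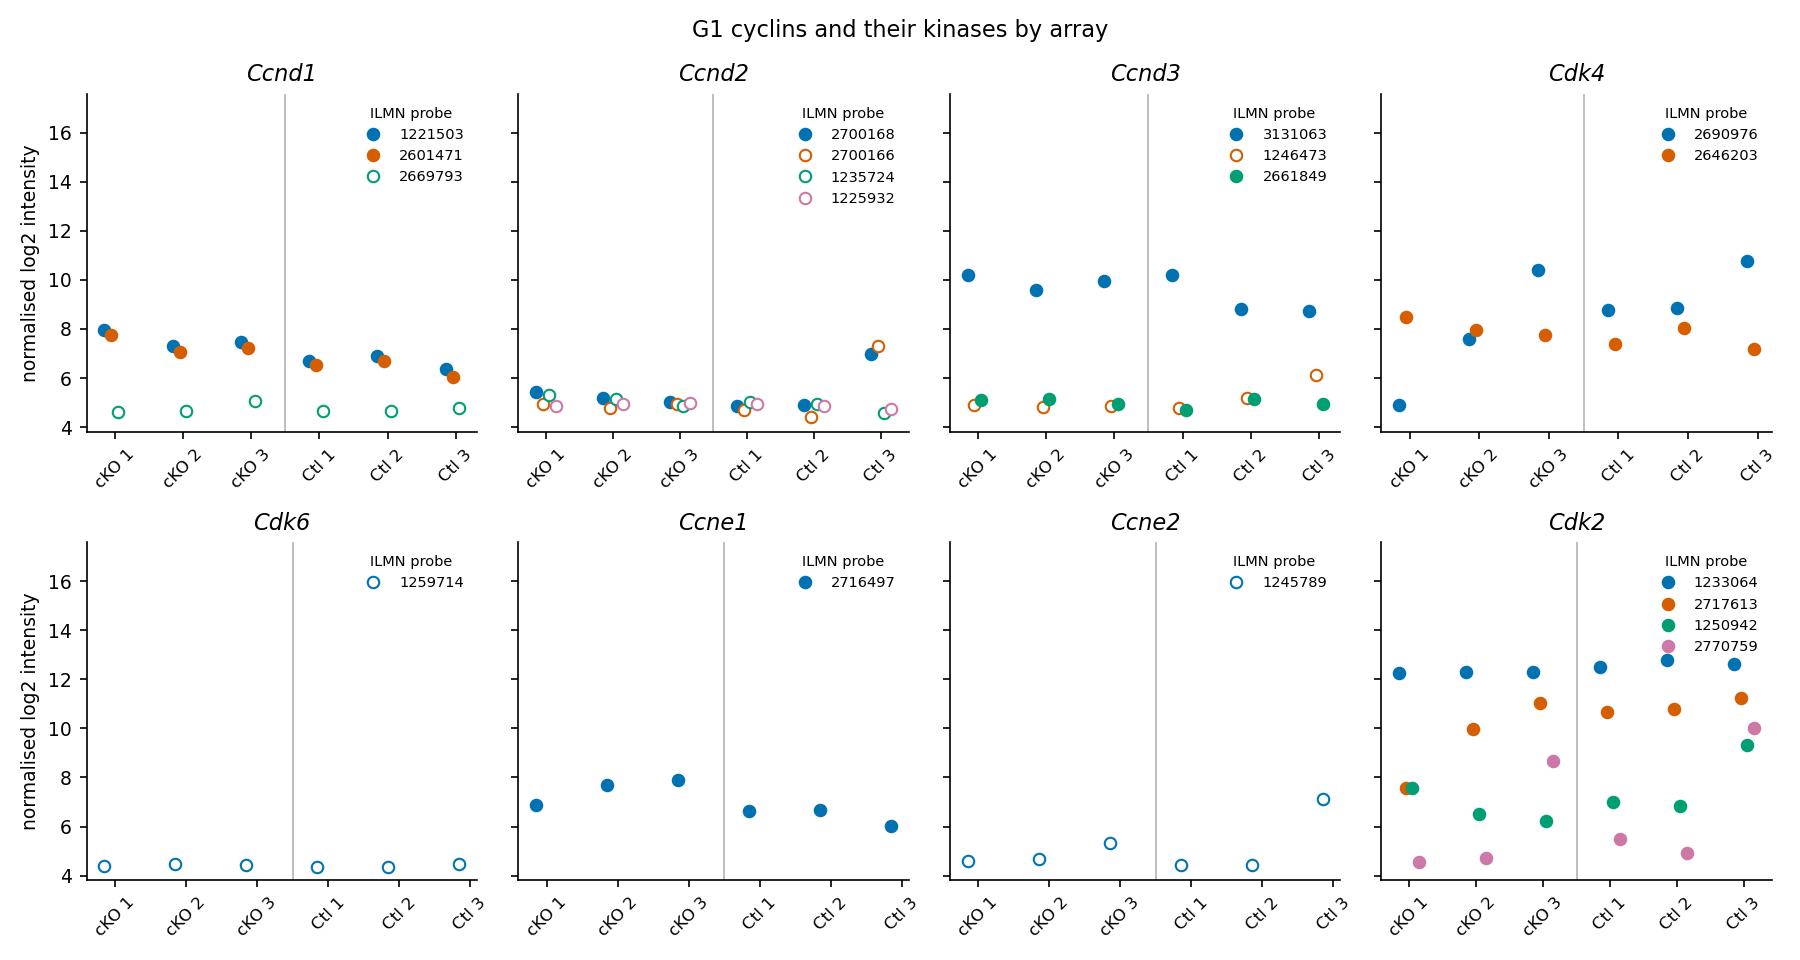
Normalised log2 intensity of all 19 probes of the 8 genes on the 6 arrays, Rb cKO replicates on the left of each panel and Control replicates on the right. Filled points are the 12 tested probes and open points the 7 probes detected on under 3 arrays. The tested probes of Ccnd1 and Ccne1 lie higher on the Rb cKO arrays, and Cdk4 ILMN_2690976 runs from 4.88 to 10.76.

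Ccnd1, which encodes cyclin D1, the D cyclin most often raised by growth factor signals, was higher in each Rb cKO sample than in any control on 2 probes. On ILMN_1221503 it read 7.96, 7.30 and 7.46 on Rb cKO replicates 1 to 3, and 6.70, 6.90 and 6.36 on Control replicates 1 to 3. Its second probe, ILMN_2601471, read 7.76, 7.05 and 7.22 in Rb cKO and 6.52, 6.70 and 6.04 in Control. Rb cKO replicate 1 was the highest array and Control replicate 3 the lowest on both, and the groups did not overlap, with gaps of 0.41 and 0.35 log2 units between the nearest arrays. The group means were 7.57 ± 0.34 (SD, n = 3) and 6.65 ± 0.27 for the first probe. That is a difference of 0.92 ± 0.30 (SE), or 1.90-fold, with a 95% interval of 0.23 to 1.61 in log2 and a limma adjusted p of 0.594. The second probe also gave 0.92 ± 0.31, with an adjusted p of 0.663. Neither passed the threshold.

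The deposited intensities, before any scaling between arrays, showed the same separation for Ccnd1. ILMN_1221503 read 247, 197 and 223 intensity units in Rb cKO against 125, 124 and 144 in Control. Control replicate 3 was thus the highest control before normalisation and the lowest array after it, so its place at the low end rests on the normalisation. The standard error over the beads of an array, 3.26% to 4.72% of the intensity, was far below the gap between the groups. That error covers only the beads within an array and not the scatter among samples. The remaining Ccnd1 probe, ILMN_2669793, was detected on 1 array, Rb cKO replicate 3, and its values of 4.62 to 5.06 overlapped between groups. Without Rb cKO replicate 1 and Control replicate 3 the difference on ILMN_1221503 was 0.61 and on ILMN_2601471 0.55.

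Ccnd2, the cyclin D2 gene, was near background in Sertoli cells of this age on every array but 1. Its tested probe ILMN_2700168 read 5.42, 5.19 and 5.04 in Rb cKO and 4.84, 4.89 and 6.99 in Control. ILMN_2700166 read 4.96, 4.79 and 4.95 in Rb cKO and 4.68, 4.41 and 7.29 in Control. On both, Control replicate 3 was far above all other arrays, which lay close together. The difference on ILMN_2700168 was -0.35 ± 0.58 (SE), with an adjusted p of 0.854, and without Control replicate 3 it was 0.33, so that its sign rested on that array. The probe was detected on all 3 Rb cKO arrays, with detection scores of 0.961 to 0.967 just over the threshold of 0.95, and on Control replicate 3. The other 2 probes of Ccnd2, ILMN_1235724 and ILMN_1225932, were each detected on 1 array and did not show this step: Control replicate 3 was their lowest array, at 4.57 and 4.73.

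Ccnd3, the cyclin D3 gene, was clearly detected through ILMN_3131063, annotated to the transcript NM_007632. That probe read 10.18, 9.59 and 9.96 in Rb cKO and 10.22, 8.83 and 8.72 in Control. Control replicate 1 was the highest of all 6 arrays and the other controls were the lowest, so the groups overlapped. The difference was 0.65 ± 0.44 (SE), 1.57-fold, with an adjusted p of 0.766 and a 95% interval of -0.38 to 1.69. Without Control replicate 1 it was 1.13, without Control replicate 3 it was 0.39, and without Rb cKO replicate 1 and Control replicate 3 it was 0.25. The probes annotated to NM_001081636 stayed near background: ILMN_2661849 differed by 0.13 ± 0.25 with values of 4.71 to 5.14, and ILMN_1246473, detected on 2 arrays, was highest on Control replicate 3, at 6.13.

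Among the kinases, the probes of Cdk4, the main partner of D cyclins in many tissues, did not follow each other. ILMN_2646203 read 8.47, 7.96 and 7.74 in Rb cKO and 7.37, 8.04 and 7.17 in Control. ILMN_2690976 read 4.88, 7.59 and 10.39 in Rb cKO and 8.79, 8.87 and 10.76 in Control. On the first probe Rb cKO replicate 1 was the highest array and Control replicate 3 the lowest, and on the second this order was turned round. Across the 6 arrays their Pearson correlation was -0.82, although both are annotated to the same transcript. The differences were 0.53 ± 0.34 (SE) and -1.85 ± 1.29, each with an adjusted p of 0.766, and both groups overlapped. Without Rb cKO replicate 1 and Control replicate 3 both probes gave 0.15; without Rb cKO replicate 1 alone ILMN_2690976 gave -0.47, and without Rb cKO replicate 3 it gave -3.25.

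The order of arrays on ILMN_2690976 was that of the first principal component at both ends, with Rb cKO replicate 1 lowest and Control replicate 3 highest. The Sertoli product Trf, the transferrin gene, read 4.57, 7.77 and 9.97 in Rb cKO and 9.64, 9.19 and 11.10 in Control, with the same 2 arrays at the ends. Whether the feature that sets these arrays apart had a part in the Cdk4 values was not tested. Cdk6, the other D cyclin partner, had 1 probe, ILMN_1259714, which was detected on no array. It read 4.40, 4.46 and 4.43 in Rb cKO and 4.35, 4.37 and 4.48 in Control. No fold is given because it was not told from background on any array (detection scores of 0.191 to 0.660).

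**Figure D2:**
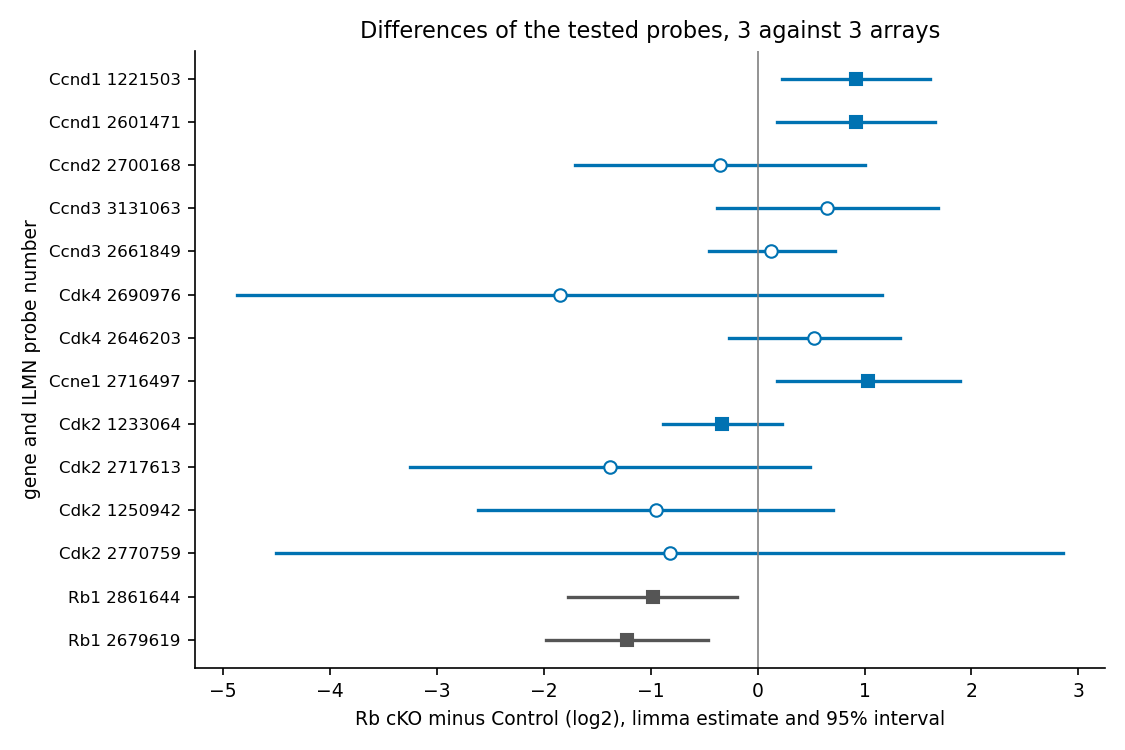
Rb cKO minus Control on the log2 scale for the 12 tested member probes and the 2 Rb1 probes in grey, with limma estimates as points and 95% intervals as lines, 3 arrays a group. Squares mark probes whose groups did not overlap; the intervals of both Ccnd1 probes and of Ccne1 lie above 0 before adjustment, and that of Cdk2 ILMN_2770759 runs from -4.50 to 2.86.

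Ccne1, which encodes cyclin E1, the partner that activates Cdk2 at the start of replication, had a higher reading on each Rb cKO array than on any control. It read 6.86, 7.68 and 7.91 on Rb cKO replicates 1 to 3, and 6.65, 6.69 and 6.01 on Control replicates 1 to 3. The groups did not overlap, but Rb cKO replicate 1 lay only 0.17 log2 units above the nearest of them. The means were 7.48 ± 0.55 (SD, n = 3) and 6.45 ± 0.38, a difference of 1.03 ± 0.37 (SE) or 2.05-fold, with a 95% interval of 0.18 to 1.89 in log2 and a limma adjusted p of 0.678. It did not pass the threshold. As deposited intensity Ccne1 read 124, 253 and 290 in Rb cKO and 121, 111 and 118 in Control, so Rb cKO replicates 2 and 3 were well above the controls and replicate 1 stood beside them. The order within Rb cKO differed from that of Ccnd1, for which replicate 1 was the highest. Without Rb cKO replicate 1 and Control replicate 3 the Ccne1 difference was 1.18.

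Ccne2, the gene of the second E cyclin, had 1 probe, ILMN_1245789, which was detected only on Rb cKO replicate 3 and Control replicate 3. It read 4.58, 4.67 and 5.33 in Rb cKO and 4.44, 4.42 and 7.14 in Control. The raised array was again Control replicate 3, and the groups overlapped.

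Cdk2, the kinase that cyclin E activates, was measured by 4 tested probes with 4 different patterns. ILMN_1233064 was the steadiest, at 12.26, 12.32 and 12.32 in Rb cKO and 12.49, 12.77 and 12.63 in Control. Its groups did not overlap, with Rb cKO lower by 0.33 ± 0.24 (SE), a 95% interval of -0.88 to 0.23 and an adjusted p of 0.766. This separation was not in the deposited intensities, where Rb cKO replicate 1 read 5824 and Control replicate 3 read 5639, and the difference was -0.14 with the deposited log2 values and -0.12 with median scaling.

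The other Cdk2 probes varied more among the arrays of a group than between the groups. ILMN_2717613, the only Cdk2 probe annotated to NM_016756, read 7.57, 9.99 and 11.02 in Rb cKO and 10.67, 10.81 and 11.23 in Control. ILMN_1250942 read 7.57, 6.51 and 6.22 in Rb cKO and 6.99, 6.83 and 9.33 in Control. ILMN_2770759 read 4.55, 4.70 and 8.68 in Rb cKO and 5.48, 4.92 and 10.01 in Control. The first was low on Rb cKO replicate 1 alone, the next was high on Control replicate 3 alone, and the last was high on replicate 3 of both groups. Their differences were -1.38 ± 0.80, -0.95 ± 0.71 and -0.82 ± 1.57, with adjusted p of 0.766, 0.766 and 0.875. Without Rb cKO replicate 1 the ILMN_2717613 difference was -0.39, and without Control replicate 3 that of ILMN_1250942 was -0.15 and that of ILMN_2770759 was 0.84.

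**Figure D3:**
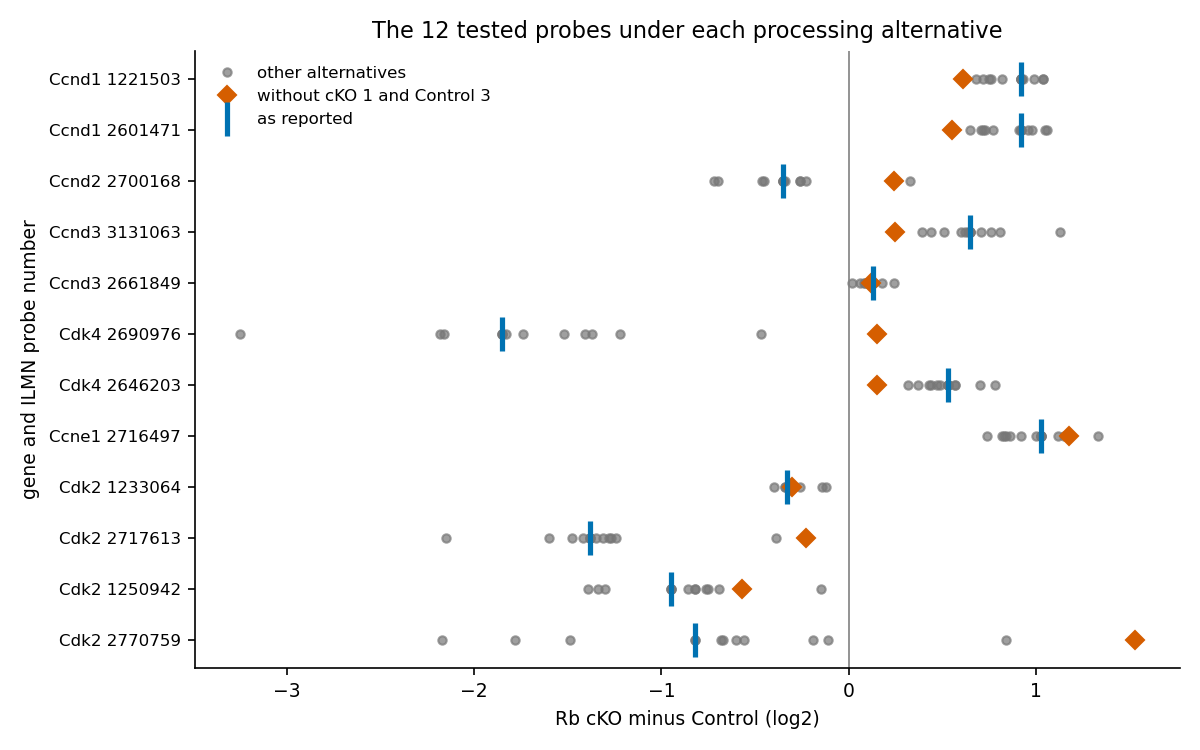
Rb cKO minus Control (log2) for each of the 12 tested probes under each processing alternative. Blue bars are the values as reported and grey points the other alternatives. Orange diamonds are the fit without Rb cKO replicate 1 and Control replicate 3. Ccnd2 ILMN_2700168, Cdk4 ILMN_2690976 and Cdk2 ILMN_2770759 fall on both sides of 0. All other probes, those of Ccnd1 and Ccne1 among them, keep their sign throughout.

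Among the genes with several tested probes, these thus agreed closely only for Ccnd1, where they correlated at 1.00 over the 6 arrays. The 6 pairs of Cdk2 probes gave Pearson correlations of 0.03 to 0.60, and the tested Ccnd3 pair gave -0.37. Between genes, Ccnd1 ILMN_1221503 correlated with Cdk4 ILMN_2646203 at 0.87 and with Ccne1 at 0.63, but with the other Cdk4 probe at -0.73 and with the 4 Cdk2 probes at -0.79 to -0.46. These points share 6 arrays, of which 2 stood apart, and the values are descriptions.

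The genes whose lead probe was most like a member over the 6 arrays, among 11670 genes, were listed by Pearson correlation, where a lead probe is the brightest tested probe of a gene. For Ccnd1 they were the MHC class II gene H2-Eb1 and the phosphatase gene Dusp5, both at 0.995, and Churc1 at 0.994. Those of Ccne1 were Phldb1 at 0.976, the peptide transporter gene Tap1 at 0.975 and Rpa2, which binds single-stranded DNA at replication forks, at 0.972. Those of Ccnd3 were Csl at 0.997, Ccdc50 at 0.997 and Sgo2a, a protector of centromeric cohesion, at 0.996. For Ccnd2 they were Tom1 at 0.994, Med13 at 0.991 and Rab1b at 0.990. None of these 12 genes passed the adjusted threshold, and a correlation over 6 arrays is a description.

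The rest of the pathway was read from lists of genes by their lead probes, where the median difference over all 12277 tested genes was 0.12 and 61.3% were positive. Of the 7 inhibitors of these kinases, 6 were tested and none passed in either direction, with 4 positive and a median of 0.52 (0.34 without Rb cKO replicate 1, 0.18 without Rb cKO replicate 1 and Control replicate 3). Cdkn2a, whose p16 product blocks Cdk4 and Cdk6, read 7.43, 6.95 and 6.89 in Rb cKO and 6.13, 6.03 and 5.44 in Control, a difference of 1.22 ± 0.31 (SE) without overlap and with an adjusted p of 0.357; its other probe gave 0.36. Cdkn1c differed by 0.87 ± 0.51 and Cdkn2d by -0.90 ± 0.54, both with overlapping groups. Cdkn1b, the p27 gene, had no tested probe.

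Of 13 pocket protein and E2F genes, 11 were tested and none passed, with 8 positive and a median of 0.28 (0.25 to 0.56 over the alternatives; 0.56 without Rb cKO replicate 3 and 0.43 without Control replicate 2). E2f1, a transcription factor that the Rb protein holds, read 10.66, 10.73 and 10.09 in Rb cKO and 7.74, 7.47 and 6.36 in Control. Its difference of 3.31 ± 0.42 (SE) had an adjusted p of 0.0501, from 0.0190 to 0.348 over the alternatives, of which 4 of 15 passed. Rbl1, the p107 relative of Rb1, differed by 1.34 ± 0.42 without overlap, and its other probe gave 0.22.

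A further list holds targets of E2F at the start of replication. Of 20 listed genes 16 were tested, of which 16 differed in the positive direction (median 1.10) and 10 had groups that did not overlap, with Rb cKO higher, as did 8.04% of all tested probes; at least 15 were positive under each alternative. This list overlaps ones already seen to be higher on these arrays, so its direction is not independent evidence. Cdt1, which licenses replication origins, was the only one past the threshold: it rose by 2.16 ± 0.27 (SE), from 6.72 ± 0.24 (SD, n = 3) to 8.88 ± 0.20, with an adjusted p of 0.0484. That call was lost without any single array (limma adjusted p 0.0732 to 0.266) and with the replicate block (0.0907). It was also lost with normexp at offset 50 (0.0623), uncorrected background (0.0517) and the deposited log2 values (0.0555). The same held with dim probes kept in (0.115) and without Rb cKO replicate 1 and Control replicate 3 (0.135). Over all alternatives the adjusted p ran from 0.0190 to 0.266, and 3 of 15 passed. Mcm2 and Mcm4, subunits of the replicative helicase, differed by 2.36 ± 0.42 and 1.29 ± 0.25 without passing.

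**Figure D4:**
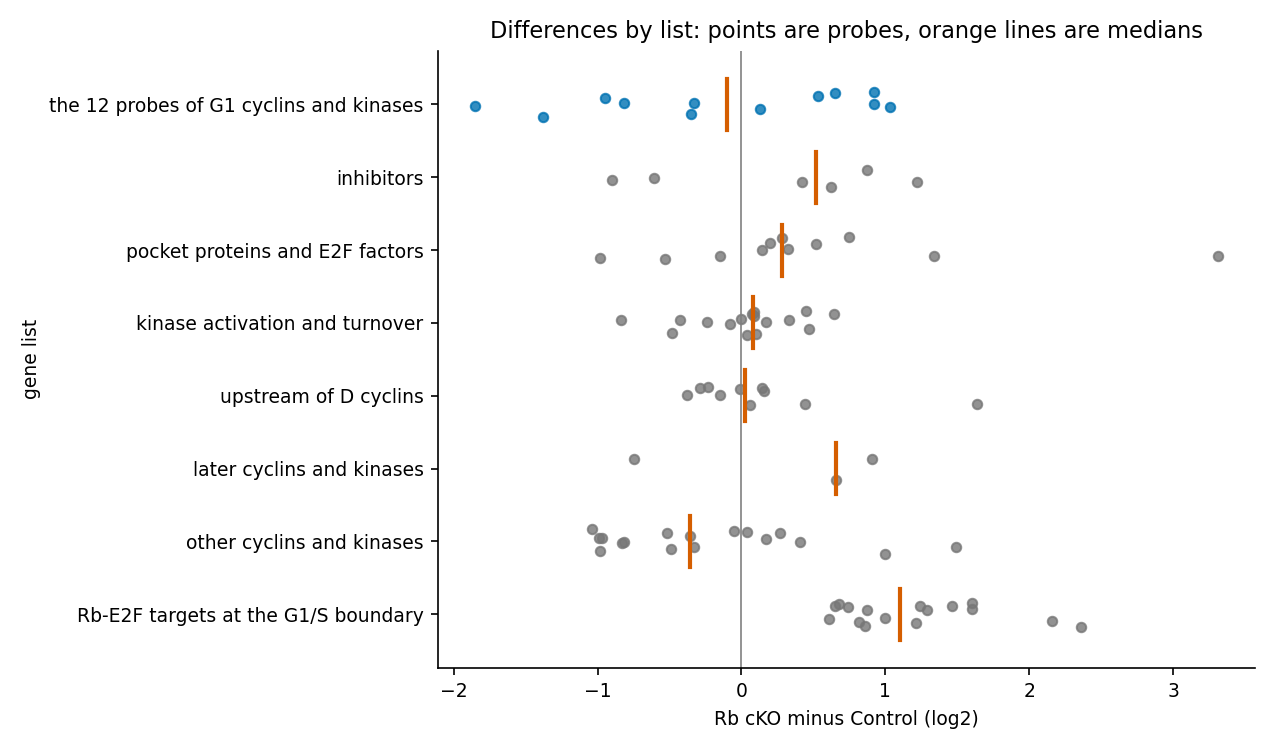
Rb cKO minus Control (log2) of each tested gene by its lead probe, for 7 lists of pathway genes in grey, and of the 12 member probes in blue, with medians as orange lines. The members spread over both sides of 0 with a median of -0.10, and all 16 targets at the G1/S boundary lie above 0.

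The machinery that activates these kinases or removes the cyclins was tested for 16 of 18 genes, of which none passed, with 11 positive and a median of 0.08 (-0.06 to 0.21 over the alternatives). Ccnh, the cyclin of the kinase that activates cyclin-dependent kinases, differed by 0.45 ± 0.27 (SE) without overlap, Gsk3b, a kinase that marks cyclin D1 for degradation, by 0.64 ± 0.38 (another probe -0.45), and Fbxo31 by -0.43 ± 0.30. Of 12 regulators upstream of D cyclins 10 were tested and none passed, with 5 positive and a median of 0.03 (-0.09 to 0.10). In that list Fos, an immediate early factor, read 13.10, 12.31 and 12.63 in Rb cKO and 10.51, 10.83 and 11.77 in Control, a difference of 1.64 ± 0.40 and an adjusted p of 0.336. Smad3 differed by 0.44 ± 0.35 and Tcf7l2 by -0.38 ± 0.30, and Myc had no tested probe.

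Later cyclins and kinases were thinly measured, with 3 of 6 genes tested and none past the threshold. Ccnf differed by 0.91 ± 0.37 (SE) without overlap, Ccna1, the cyclin A of male germ cells, by 0.66 ± 0.36, and Cdk1, the mitotic kinase, by -0.75 ± 0.75 with another probe at 0.20. The cyclin A2 gene Ccna2 had no tested probe. Of 19 other cyclins and kinases 17 were tested and none passed, with 6 positive and a median of -0.36. That median was -0.15 without Rb cKO replicate 1, -0.16 without Rb cKO replicate 3, -0.57, -0.13 and -0.15 without Control replicates 1, 2 and 3, and -0.21 without Rb cKO replicate 1 and Control replicate 3. Ccng1, a p53 target, differed by 1.49 ± 0.34 and its other probes by 1.11 and 1.04, Ccny by -0.97 ± 0.25 and Cdk5 by -1.04 ± 0.51, each without overlap.

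Markers of other testis cells were read on the same arrays, and none passed the threshold. Of 8 endothelial markers 6 were tested and all 6 were positive. Their mean level ran from 6.84 to 8.04 on the Rb cKO arrays, highest on replicate 1. On the controls it ran from 5.52 to 6.18, lowest on replicate 3. Ccnd1 had the same ends after normalisation, and so did the mean levels of the leukocyte and spermatogonia markers. These are also the arrays that stood apart on the first principal component. Kdr was not detected on any array. For peritubular myoid cells 4 of 6 markers were tested, all positive, with mean levels of 7.67 to 8.54 and 6.76 to 7.47, and Cnn1 and Tagln were not detected. Leydig markers, 4 of 6 tested and all positive, ran from 8.37 to 9.72 and from 7.29 to 7.92, with Hsd3b1 not detected. Macrophage and leukocyte markers, 5 of 10 tested and 4 positive, ran from 8.19 to 8.61 and from 7.0 to 7.77, with Ptprc not detected. As the log2 of summed levels, the ranges in Rb cKO and Control were 10.45 to 11.87 and 8.18 to 9.0 for endothelial, 11.73 to 13.27 and 10.71 to 10.96 for peritubular, 11.17 to 13.07 and 10.19 to 11.53 for Leydig, and 11.60 to 12.07 and 12.21 to 12.44 for leukocyte markers, whose sum was lower in Rb cKO while their mean level was higher. The endothelial sum rested largely on Robo4, which read 11.46, 9.96 and 10.22 in Rb cKO and 6.97, 7.32 and 6.29 in Control on this probe, while its other probes differed by 0.23 and 0.31. Without Robo4 that sum was 8.66 to 9.87 in Rb cKO and 7.73 to 8.46 in Control. In the leukocyte sum the brightest gene was Mrc1, at 10.67, 11.73 and 11.65 in Rb cKO and 12.03, 12.32 and 12.19 in Control. Mrc1 was the only tested leukocyte marker with a negative difference. The part of these cells in the cyclin values was not tested, and in bulk RNA fewer cells of a type and less RNA per cell cannot be told apart.

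Germ cell RNA was present in both groups, with the spermatid protamine gene Prm1 at 14.82 in Rb cKO and 14.84 in Control. Spermatogonia markers, 10 of 12 tested and 9 positive, had mean levels of 7.69 to 8.17 in Rb cKO and 7.08 to 7.39 in Control, with Zbtb16 and Nanos3 not detected; as log2 of the sum they ran from 12.38 to 12.64 and from 12.09 to 12.30. Spermatocyte markers, 9 of 12 tested and 8 positive, ran from 10.84 to 11.26 and from 10.23 to 11.08, with summed levels of 16.10 to 16.28 and 15.74 to 16.21, and Sycp3, Hormad1 and Dmc1 were not detected. Spermatid markers, 11 of 12 tested and 8 positive, ran from 12.49 to 12.88 and from 12.24 to 12.85. Their summed levels were 16.60 to 16.95 and 16.46 to 16.85. Control replicate 1 was the highest control on the spermatocyte and spermatid lists (11.08 and 12.85), as it was for Ccnd3 ILMN_3131063. This array was above all Rb cKO arrays for that Ccnd3 probe but not for either list. Of the 16 Sertoli markers 11 were tested and all 11 were negative, with a median of -0.52, mean levels of 8.87 to 10.24 and 10.34 to 10.70, and summed levels of 15.26 to 15.50 and 15.47 to 15.78. Their part in the values of the cyclins and kinases was not tested.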

How the data were processed

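RNA of 6 samples was hybridised to 6 arrays, and per the file headers the authors' tables give each probe's mean intensity, bead spread, bead number and a detection score that rises from 0 to 1. The submitters' processing notes name BeadStudio, with no version. The deposited series table holds log2 values: intensity over each array's 75th percentile, less the probe's median across arrays, with column medians of 0.244, -0.022 and -0.194 (Rb cKO 1 to 3) and 0.040, 0.098 and -0.301 (Control 1 to 3). Their direction and scale follow from this match; all 45281 entries were joined to the scanner probes through this formula (largest distance 0.00069, smallest to a second probe 0.0042). By the platform annotation, 34885 probes have 1 symbol, 18 have several and 10378 have none. No genome build is given in the sources used here for the arrays.

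Here neqc corrected the background and quantile-normalised the intensities (limma 3.58.1, R 4.3.3; offset 16, background from the detection values). Probes with a detection score over 0.95 on at least 3 arrays entered lmFit and eBayes (two-sided, no term but group). The p-values were adjusted by Benjamini-Hochberg over all 21805. The fit was also run on simulated data with independent noise on each array. Deviations shared between arrays or probes were not simulated, so that run does not cover them. The number of arrays limits the precision, and a median of 43 to 44 beads lay behind each value, with 43.0% to 53.5% of probes detected per array.

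The members and lists were chosen with earlier results of these data known. Named genes were every member and Rb1 probe, up to 3 genes with the smallest p in each pathway list and all past the threshold, and the 3 genes most like each cyclin; genes of clone or predicted name were passed over (606). Genes named only for their detection, and the single markers Sox9, Cldn11, Trf, Amh, Inha, Prm1, Robo4 and Mrc1, were chosen after their values were seen. Same-numbered arrays of the groups deviated together (correlations 0.262, 0.410 and 0.473, all over 0.1), so the replicate number was used as a block in an alternative fit. Arrays of different number were not compared in this way, so these values cannot show that a shared number is a pair. The main fit had no term for it. Alternatives were other background corrections, scalings, filters and sources of the values, 1 probe per gene, the replicate block, and left-out arrays.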

Additional observations from a re-analysis of the deposited data

How the results depend on the processing

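Over the alternatives run, 0 of the tested member probes passed limma's threshold, and the 3 tested probes of Ccnd1 and Ccne1 kept a positive difference in each. Both tested Ccnd1 probes ran from 0.55 to 1.06 and Ccne1 from 0.74 to 1.33. A kept sign was not particular to them. Ccnd3 ILMN_3131063 (0.25 to 1.13), Ccnd3 ILMN_2661849 (0.02 to 0.24) and Cdk4 ILMN_2646203 (0.15 to 0.78) also stayed positive. Cdk2 ILMN_1233064, ILMN_2717613 and ILMN_1250942 stayed negative. Without Rb cKO replicate 1 and Control replicate 3, the sign turned for Ccnd2 ILMN_2700168 (0.24), Cdk4 ILMN_2690976 (0.15) and Cdk2 ILMN_2770759 (1.53), and without Control replicate 3 for Ccnd2 ILMN_2700168 (0.33) and Cdk2 ILMN_2770759 (0.84); the cause was not tested. Without any single array these probes ran from -0.72 to 0.33 (Ccnd2), -3.25 to -0.47 (Cdk4) and -2.17 to 0.84 (Cdk2). Of all probes, 31 were higher and 0 lower as reported. The higher count was 9 with normexp (offset 50), 13 with uncorrected background, 1 when dim probes were kept in, 56 with 1 probe per gene, 6 without Rb cKO replicate 1 and Control replicate 3, 0 with the replicate block, and 0 to 16 without any single array (0 without each control, 8, 2 and 16 without Rb cKO replicates 1, 2 and 3). It was 43 with median scaling, 26 with the deposited log2 values and 27 with detection on all 6 arrays. With the replicate block no member probe passed the adjusted threshold. At an unadjusted limma p under 0.05 there were 5 member probes in place of 3, 3 higher and 2 lower. Over all tested probes the block gave 1975 higher and 1282 lower, in place of 1010 and 383. The member count ran from 1 to 5 over the alternatives. That count and the endothelial sum without Robo4 were added after seeing the data. Median scaling moved the median of all tested probes from 0.08 to 0.13. Probes near background, such as those of Ccnd2, Cdk6 and Ccne2, limit what can be seen of these genes.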
